A study of Mus musculus with 12 samples.

Results

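The genes described here are those of the vacuolar proton pump and of lysosomal protein breakdown. They were chosen by name alone: every gene whose symbol begins with Atp6v0 or Atp6v1, every gene named Cts followed by a single letter, and Lamp1 and Lamp2. This gave 45 of the 49164 mouse genes with counts. By role they were 13 genes of the V1 sector of the pump, 9 genes of its V0 sector, 18 cathepsins, 2 lysosome-associated membrane proteins and 3 genes that share only the name (the pseudogenes Atp6v0c-ps1 and Atp6v0c-ps2 and the neighbouring gene Atp6v1fnb).

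The V-ATPase pumps protons into lysosomes, endosomes and, in some cells, across the plasma membrane. Its cytosolic V1 sector hydrolyses ATP and its membrane-embedded V0 sector carries the protons. Cathepsins are proteases that work mostly at the acid pH this pump maintains, and Lamp1 and Lamp2 are abundant glycoproteins of the lysosomal membrane. Several subunits exist as a widely expressed form and a restricted form, and in the kidney the restricted forms are known from the acid-secreting intercalated cells of the collecting duct.

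RNA came from nephron progenitor cells of fetal mouse kidneys at E17.5, in 12 libraries of 1 litter each. The K arm and the BHB arm are the 4 libraries each whose titles name a ketogenic diet and β-hydroxybutyrate, a ketone body, and the normal arm is the 4 libraries of the control diet. The treatment fields of the K and BHB libraries give each the other's regimen, so K and BHB are used here only as names of library sets. Regimens began at conception. Dams were wild-type CD1 outbred mice, and all embryos of all arms, controls included, were described as heterozygous for a Tg(Six2-EGFP/cre) transgene inherited from the sire, whose Six2 promoter drives a GFP-Cre protein in the cap mesenchyme. Cells were sorted by GFP after collagenase and dispase digestion, each library pooled a whole litter, and sex was not distinguished. The comparisons ask whether the maternal regimen changed these genes in the progenitors.

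Libraries held 7532784 to 12276119 counts. The summed level of 10 nephron progenitor markers, Six2 and Eya1 among them, was 2191, 2436, 1382 and 1562 CPM in K, 1577, 1860, 2444 and 2112 CPM in BHB and 2336 to 2541 CPM in normal. The markers of the labelled cell type were present throughout, and lowest in K 3, K 4, BHB 1 and BHB 2. CPM, counts per 1000000, are counts over the library's TMM-scaled total of tested genes. In these 4 every one of 7 loop of Henle and distal tubule markers, 6 podocyte markers and 8 endothelial markers lay above all 4 normal libraries. Of 10 proximal tubule markers 0 did so in all 4. Their sum was 1372 and 693 CPM in BHB 1 and BHB 2, and 1225 and 1598 CPM in BHB 3 and BHB 4. BHB 4 had the highest level of all 12 libraries for each of 12 myeloid markers. No gene of these marker lists was at 0 in all libraries. K 3, K 4, BHB 1 and BHB 2 are called the 4 libraries, and values for the members described one by one are given also without them where they move by much.

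Of the 45 members, 36 passed the filter on low counts and were tested. The 9 others were Atp6v1e2, the testis form of subunit E, with 2 counts over all libraries, Atp6v0c-ps1 with 32, Atp6v1fnb with 92, the lymphocyte cathepsin Ctsw with 15, the neutrophil serine protease Ctsg with 8, and the rodent placental cathepsins Ctsj, Ctsm, Ctsq and Ctsr with 0 to 2 counts each. To compare genes, CPM were divided by exon length in kilobases. On that scale Atp6v1g1 was the highest V-ATPase gene in normal litters at 57.1 ± 3.0 CPM per kb (SD, n = 4), and Lamp1 stood at 49.5 ± 3.2. Subunits d, c and F of the pump followed, with Atp6v0d1 at 28.9 ± 2.3, Atp6v0c at 28.8 ± 1.9 and Atp6v1f at 26.6 ± 2.5 CPM per kb, which do not differ beyond their spread. The highest cathepsins were Ctsd at 21.6 ± 2.1, Ctsl at 19.99 ± 2.30 and Ctsz at 19.1 ± 2.4 CPM per kb, also within each other's spread. The lowest tested members were Ctsk, Ctss and Ctse, at 0.688 ± 0.221, 0.271 ± 0.097 and 0.230 ± 0.083 CPM per kb.

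Promoter sequences are shown because many lysosomal genes are known to carry sites for the TFEB family of transcription factors, whose recognised core is CACGTG within the longer TCACGTGA. RefSeq promoter windows of GRCm38.p6, 250 bases before to 50 bases after the start, were at hand for 33 of the 45 members. CACGTG stood in 9 of the 33 (27.3%), against 8.09% of 27025 genes. TCACGTGA, which contains CACGTG, stood in 5 of the 33 (15.2%), against 1.12% of the genes. Both strings read the same on both strands. Capitals mark CACGTG, or TCACGTGA in Ctsd, in the following windows, each 5′ to 3′ on the gene's strand.
Lamp1: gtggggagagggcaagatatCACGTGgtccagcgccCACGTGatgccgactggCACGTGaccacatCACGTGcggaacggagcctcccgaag
Atp6v0b: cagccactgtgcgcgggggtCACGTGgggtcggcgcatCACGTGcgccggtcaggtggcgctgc
Atp6v0d1: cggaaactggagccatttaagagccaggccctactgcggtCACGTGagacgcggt
Atp6v1a: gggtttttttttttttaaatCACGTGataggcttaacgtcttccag
Ctsa: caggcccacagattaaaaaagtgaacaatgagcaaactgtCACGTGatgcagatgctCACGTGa
Ctsd: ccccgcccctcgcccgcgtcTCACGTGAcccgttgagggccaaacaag
Lamp1, on the plus strand at chr8:13159080-13159171, had 4 matches within the 92 bases printed. Atp6v0b (minus strand, chr4:117887322-117887385) and Ctsa (plus strand, chr2:164833721-164833784) had 2 each. Atp6v0d1 (minus strand, chr8:105566053-105566107), Atp6v1a (minus strand, chr16:44139365-44139410) and Ctsd (minus strand, chr7:142387899-142387946) show 1 each in the stretch printed. A match describes the letters only, and no binding was measured.

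No member and no gene passed an adjusted p of 0.05 in any comparison by edgeR's quasi-likelihood test with Benjamini-Hochberg adjustment over 17697 genes (0% in each). Differences from normal nonetheless ran mostly one way: 32 of the 36 members were higher in K than in normal, with a median log2 fold change of 0.48, where 50.6% of all genes tested were higher and their median was 0.00. In BHB 30 of 36 were higher than in normal, with a median of 0.30, against 52.8% of all genes and a median of 0.02. With both treated arms set against normal 32 of 36 were higher, with a median of 0.37, against 51.1% and 0.01. In bulk libraries fewer cells of a type and less RNA per cell cannot be told apart. These medians rested on K 3, K 4, BHB 1 and BHB 2: without them 20 of the 36 members were higher in K with a median of 0.07, 27 were higher in BHB with a median of 0.08, and 25 were higher in both treated arms with a median of 0.09. The loop of Henle and distal tubule, podocyte and endothelial markers that were high in the same 4 libraries moved with the medians. The progenitor markers moved against the medians. The part of all these markers in the result was not tested. Leaving out the 4 libraries did not even out these markers: the podocyte sum was 179 and 164 CPM in K 1 and K 2 and 162 CPM in BHB 3, against 55.3 to 97.4 CPM in normal, and the endothelial sum 67.2 and 53.9 CPM in K 1 and K 2 and 47.7 CPM in BHB 3, against 16.2 to 29.3 CPM in normal.

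**Figure D1:**
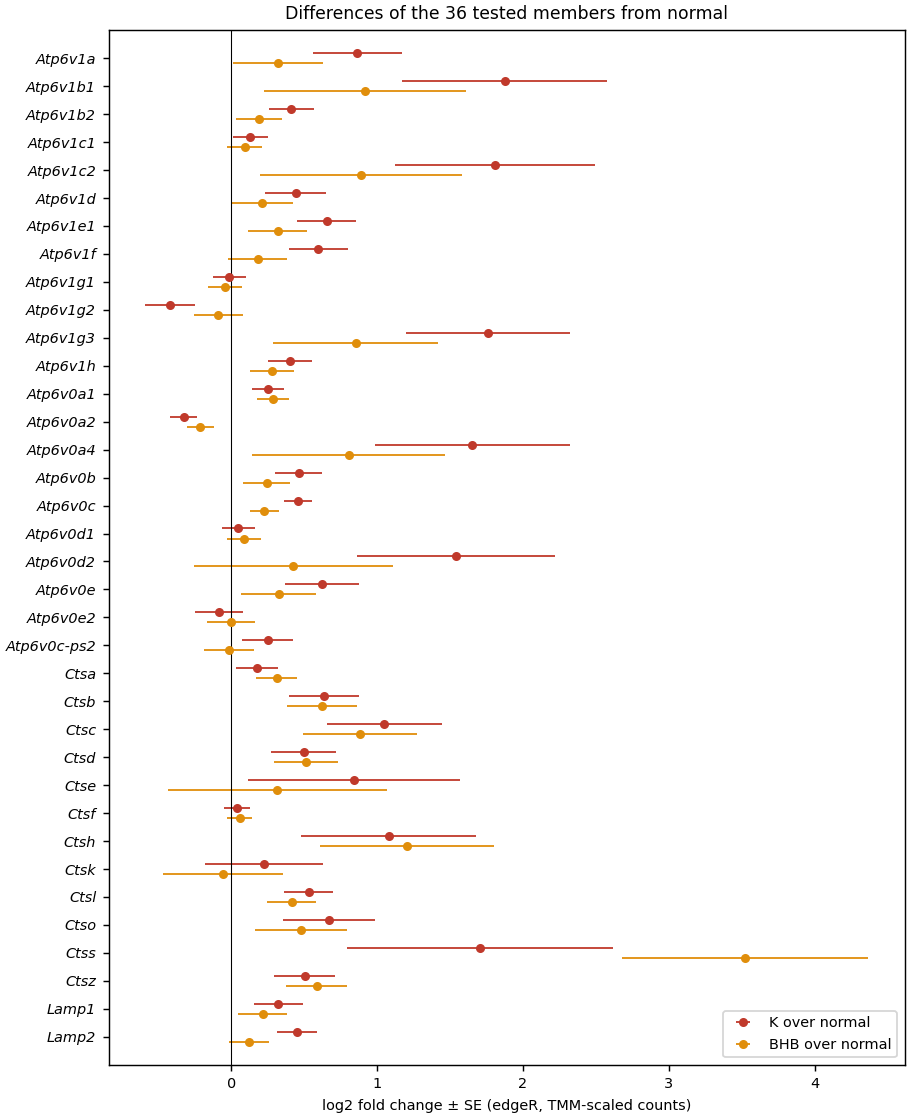
Log2 fold change ± SE (edgeR, 4 litters per arm) of each of the 36 tested members, K over normal in red and BHB over normal in orange, ordered by role. Most points lie right of 0, 32 of 36 for K and 30 of 36 for BHB. Atp6v0a2 lies left of 0 for both, and Ctss in BHB lies farthest right with a wide error.

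At an unadjusted p under 0.05, 22 members differed between K and normal (61.1%, against 19.8% of all genes), 10 between BHB and normal (27.8%, against 11.8%), 17 between both treated arms and normal (47.2%, against 18.8%), and 12 when the 3 arms were tested together (33.3%, against 14.2%). The smallest adjusted p of a member was 0.221 for K, 0.417 for BHB, 0.252 for both treated arms and 0.351 for any difference. Every K litter lay above every normal litter for 4 members, Atp6v0c, Lamp2, Ctsl and Ctss (11.1%, against 4.87% of all genes), and below for 1, Atp6v0a2 (2.78%, against 5.26%). Every BHB litter lay above every normal litter for 5 members, Atp6v0c, Ctsl, Ctsb, Ctsd and Ctss (13.9%, against 3.95%), and below for none (against 4.67%). All 8 treated litters lay above all 4 normal litters for Atp6v0c, Ctsl and Ctss (8.33%, against 1.03%), and below for no member (against 0.831%). Ctss entered these counts only because the treated litters carried it past the filter on low counts, so its place in them is no result.

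Deviations of the K and normal litters of one number had correlations of 0.11, 0.46, 0.34 and 0.24 for numbers 1 to 4. K 2 and K 3 correlated best with the normal litter of their own number, and K 1 and K 4 with another. A fit of these 2 arms with the number as a block called 391 of 16746 genes (2.33%), 4 of them among the 34 members tested there (11.8%). No label names such a pairing, and the block was chosen after it was seen in these same data. Its calls are therefore given as a description. All 4 rose in K. They were Ctsl at a log2 fold change of 0.52 ± 0.07 (SE; edgeR adjusted p = 0.0348), Ctsh at 1.00 ± 0.17 (adjusted p = 0.0421), Atp6v0a4 at 1.39 ± 0.23 (adjusted p = 0.0440) and Lamp2 at 0.45 ± 0.08 (adjusted p = 0.0465). Over the alternatives tried, the adjusted p ranged from 0.0348 to 0.508 for Ctsl, from 0.0421 to 0.951 for Ctsh, from 0.0440 to 0.999 for Atp6v0a4 and from 0.0465 to 0.508 for Lamp2. Without the 4 libraries the K values, with no block, were 0.30 ± 0.09 for Ctsl, -0.24 ± 0.58 for Ctsh, 0.02 ± 0.55 for Atp6v0a4 and 0.26 ± 0.09 for Lamp2. DESeq2, run without the block, called 1 member in K, Atp6v0c, among 209 of 16407 genes (1.27%). It called 1 member in BHB among 84 of 20806 genes (0.404%), 2 for both treated arms among 196 of 19338 (1.01%) and 2 among 93 of 23743 (0.392%) when the 3 arms were tested together.

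Among the widely expressed V1 subunits, the clearest differences were in K 3 and K 4. Atp6v1e1, the peripheral-stalk subunit E, had 77.0, 65.8, 129 and 114 CPM in K, 89.3, 87.2, 69.5 and 59.0 CPM in BHB and 57.2, 58.3, 67.7 and 61.8 CPM in normal. K 3 and K 4 stood above every other library while K 2 lay within the normal range, and the log2 fold change was 0.65 ± 0.20 for K (SE; edgeR adjusted p = 0.221) and 0.32 ± 0.20 for BHB (adjusted p = 0.484). Atp6v1f, a subunit of the central rotor, had 33.7, 29.9, 61.5 and 46.1 CPM in K, 32.5, 38.9, 29.7 and 27.1 CPM in BHB and 30.5, 30.4, 27.2 and 24.9 CPM in normal. It too was highest in K 3 and K 4, with a log2 fold change of 0.60 ± 0.20 for K and 0.18 ± 0.20 for BHB. Without the 4 libraries the K values were 0.23 ± 0.10 for Atp6v1e1 and 0.18 ± 0.11 for Atp6v1f. The BHB values were then 0.07 ± 0.10 and 0.007 ± 0.115. The catalytic subunit A, encoded by Atp6v1a, had a log2 fold change of 0.86 ± 0.31 for K, from 251 and 226 CPM in K 3 and K 4 and 113 and 93.2 CPM in K 1 and K 2, against 71.5 to 114 CPM in normal. It was 0.14 ± 0.19 without the 4 libraries. In contrast Atp6v1g1 and Atp6v1c1, the common forms of subunits G and C, had log2 fold changes of -0.01 ± 0.11 and 0.13 ± 0.12 for K.

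Atp6v1g2, the form of subunit G known from neurons, was among the few members with a negative difference. It had 4.23, 5.08, 4.18 and 5.53 CPM in K, 5.60, 6.27, 5.77 and 6.35 CPM in BHB and 5.0004, 5.69, 7.20 and 7.64 CPM in normal. K and normal overlapped, and the difference on the log2 scale was -0.42 ± 0.17 for K (adjusted p = 0.229) and -0.09 ± 0.17 for BHB. Its exons overlap those of Nfkbil1 on the opposite strand in GENCODE M21, so without a stated strand setting its reads cannot be told from theirs.

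The 5 restricted V-ATPase isoforms were all highest in the same 4 libraries. Atp6v1b1, subunit B1, had 22.8, 16.4, 112 and 94.8 CPM in K, 40.2, 58.7, 17.4 and 9.66 CPM in BHB and 13.5, 10.9, 26.5 and 16.0 CPM in normal. Atp6v0a4, subunit a4, like B1 a gene of inherited distal renal tubular acidosis in humans, had 21.4, 12.4, 104 and 72.8 CPM in K, 41.8, 41.5, 15.5 and 18.2 CPM in BHB and 11.3, 7.55, 25.2 and 22.9 CPM in normal. For both genes K 3, K 4, BHB 1 and BHB 2 stood above every other library, and K 1, K 2, BHB 3 and BHB 4 overlapped normal.

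Atp6v0d2, the restricted subunit d, had 4.94, 3.74, 29.7 and 16.8 CPM in K, 8.53, 10.7, 3.74 and 2.29 CPM in BHB and 4.34, 3.14, 7.72 and 3.58 CPM in normal. Atp6v1g3, the kidney form of subunit G, had 5.34, 4.98, 27.7 and 15.8 CPM in K, 8.45, 11.3, 4.72 and 4.07 CPM in BHB and 2.17, 4.02, 5.20 and 4.42 CPM in normal. Atp6v1c2, the restricted subunit C, had 2.32, 1.44, 13.4 and 10.0 CPM in K, 5.52, 4.55, 2.36 and 1.78 CPM in BHB and 1.32, 0.981, 3.12 and 2.27 CPM in normal. The same 4 libraries were the highest for all 3, and each arm's litters overlapped those of normal. Atp6v1c2 overlaps Pdia6 on the opposite strand, and Atp6v0a4 overlaps Tmem213 on the opposite strand and D630045J12Rik on the same strand, so reads of these pairs could be split between them.

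The log2 fold changes of the 5 isoforms for K were 1.54 ± 0.68 to 1.87 ± 0.70 (SE), with adjusted p from 0.221 to 0.245, and for BHB 0.43 ± 0.68 to 0.91 ± 0.69, with adjusted p from 0.495 to 0.777. Without K 3, K 4, BHB 1 and BHB 2, Atp6v1b1 stood at 0.23 ± 0.41 for K and -0.29 ± 0.42 for BHB, and Atp6v0a4 at 0.02 ± 0.55 and 0.00 ± 0.55. Atp6v1g3, Atp6v1c2 and Atp6v0d2 then stood at 0.39 ± 0.29, -0.04 ± 0.44 and -0.12 ± 0.36 for K. For BHB these 3 stood at 0.16 ± 0.30, 0.12 ± 0.43 and -0.62 ± 0.38. The summed level of 9 intercalated cell markers was 47.3, 41.4, 273 and 165 CPM in K, 102, 102, 44.6 and 26.1 CPM in BHB and 31.3, 35.2, 69.6 and 42.5 CPM in normal. It was highest in the same 4 libraries. Of the 9 markers 5 lay above every normal library in all 4 of them. Other marker sums were also highest in K 3, K 4, BHB 1 and BHB 2. For 7 loop of Henle and distal tubule markers the sum was 3067, 2742, 1619 and 1694 CPM there, against 192 to 801 CPM elsewhere. For 10 ureteric and principal cell markers it was 836, 712, 746 and 515 CPM, against 155 to 293 CPM elsewhere. Of these 10, 8 lay above every normal library in all 4. The podocyte and endothelial sums were highest there too. Foxi1, the forkhead factor of intercalated cells, had 7.15, 4.31, 36.9 and 16.0 CPM in K, 10.0, 8.49, 6.59 and 4.32 CPM in BHB and 4.34, 5.002, 9.72 and 4.06 CPM in normal. The part of these markers in the differences of the isoforms was not tested.

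**Figure D2:**
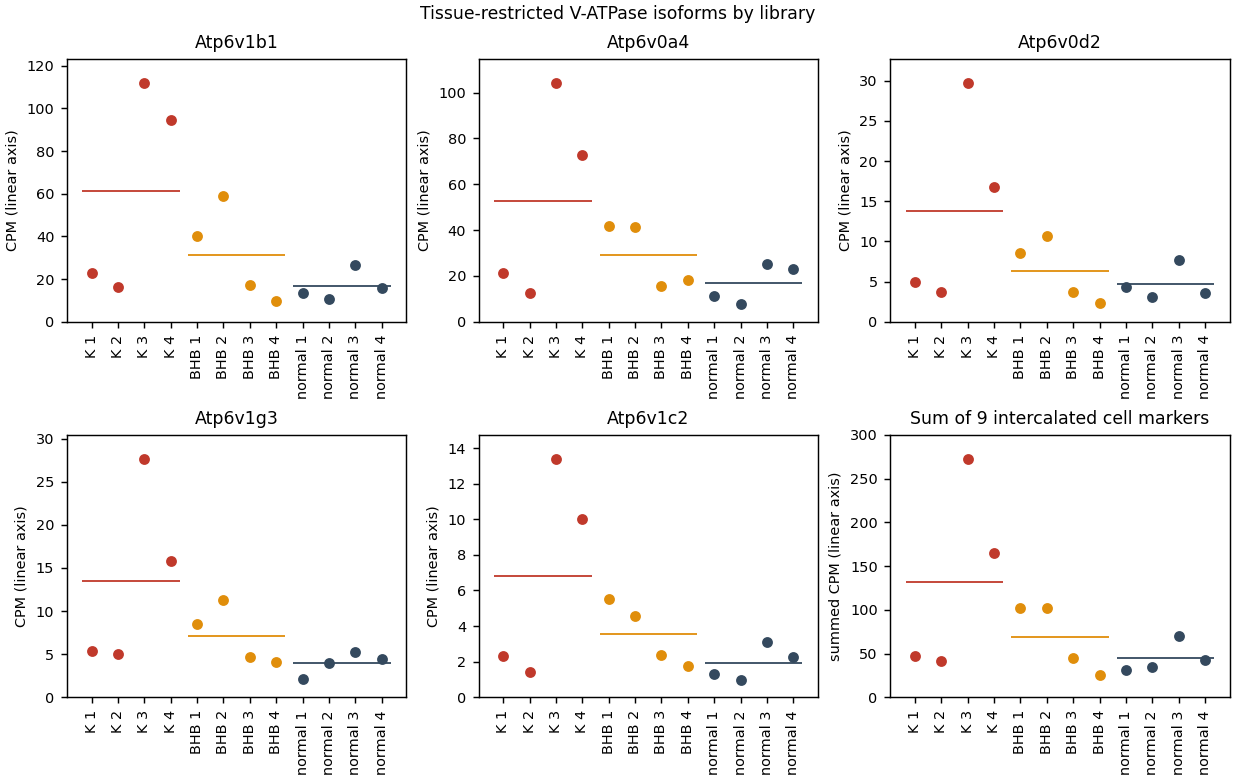
CPM of the 5 restricted V-ATPase isoforms and the summed CPM of 9 intercalated cell markers in each library (points), with the arm mean as a line, K in red, BHB in orange and normal in dark blue. In every panel K 3, K 4, BHB 1 and BHB 2 are the 4 highest libraries.

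As a share of their subunit's CPM per kb, Atp6v1b1 and Atp6v0a4 were highest in the same 4 libraries. Atp6v1b1 made up 27.3%, 20.6%, 54.4% and 50.6% of the B subunit transcripts in K, 34.0%, 48.0%, 21.4% and 13.9% in BHB and 21.5%, 16.6%, 29.9% and 19.3% in normal. Atp6v0a4 made up 13.2%, 7.86%, 42.3% and 32.8% of the a subunit transcripts in K, 21.6%, 24.2%, 9.57% and 10.2% in BHB and 7.30%, 4.997%, 14.7% and 13.7% in normal, with Tcirg1, the a3 subunit, counted in the total. Mean shares were 38.2% ± 16.8 in K, 29.3% ± 14.95 in BHB and 21.8% ± 5.8 in normal for Atp6v1b1 (SD, n = 4 each). The arms overlapped for both.

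**Figure D3:**
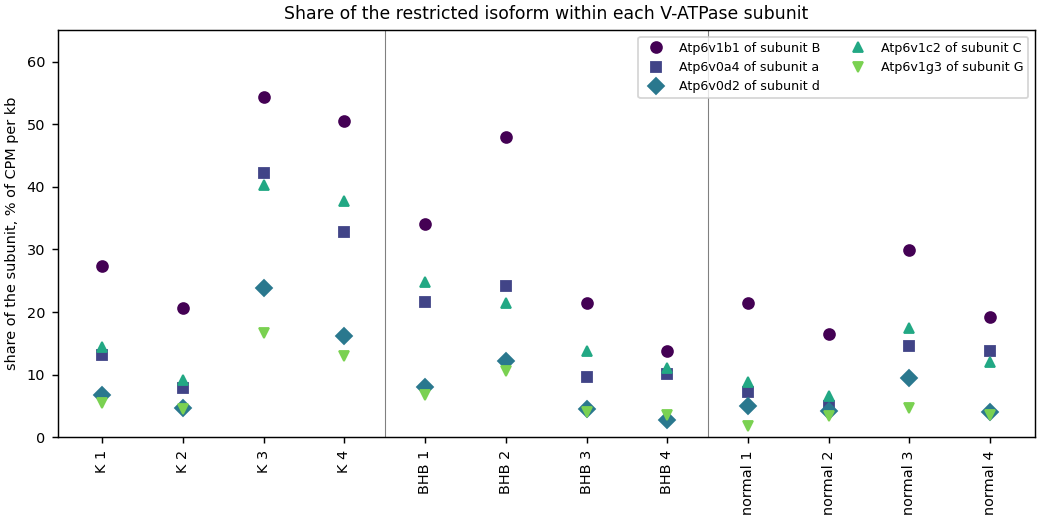
Share of the restricted isoform in the summed CPM per kb of its V-ATPase subunit, in percent, for each library (points), with K left, BHB in the middle and normal right. K 3 and K 4 hold the highest shares of each isoform, for example 54.4% and 50.6% for Atp6v1b1.

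The promoter of Atp6v1b1 is printed because it was the one member window with the forkhead string TGTTTAC, chosen after the levels of Foxi1 were seen and searched on both strands. The string stood in 1 of 33 member windows (3.03%), against 4.05% of all genes. Capitals mark it in the 250 bases before the start, chr6:83742767-83743016 on the plus strand of GRCm38.p6.
Atp6v1b1: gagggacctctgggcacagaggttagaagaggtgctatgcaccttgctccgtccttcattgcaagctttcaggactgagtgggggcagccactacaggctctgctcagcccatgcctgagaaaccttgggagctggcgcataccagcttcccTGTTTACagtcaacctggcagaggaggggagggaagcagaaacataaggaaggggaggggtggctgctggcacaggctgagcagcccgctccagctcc

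In the V0 sector Atp6v0c, the c subunit of the proton-carrying ring, had the smallest p of all members for K and for both treated arms. It had 118, 118, 142 and 157 CPM in K, 124, 113, 108 and 112 CPM in BHB and 93.0, 96.4, 107 and 93.7 CPM in normal. All 8 treated litters lay above all normal litters, though BHB 3 at 108 CPM and normal 3 at 107 CPM were close. Its log2 fold change was 0.46 ± 0.10 for K (SE; edgeR adjusted p = 0.221), 0.23 ± 0.10 for BHB (adjusted p = 0.418) and 0.34 ± 0.08 for both treated arms (adjusted p = 0.252). By DESeq2 it passed for K (adjusted p = 0.0206) and for both treated arms (adjusted p = 0.0497). Over the alternatives its adjusted p ranged from 0.0206 to 0.508 for K and from 0.0497 to 0.769 for both treated arms. Without K 3, K 4, BHB 1 and BHB 2 it stood at 0.28 ± 0.07 for K and 0.17 ± 0.07 for BHB. The pseudogene Atp6v0c-ps2, whose reads the counting may have split with those of Atp6v0c, had a log2 fold change of 0.25 ± 0.17 for K and -0.02 ± 0.17 for BHB.

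Atp6v0a2 encodes the a2 subunit, known from endosomes and the Golgi. It had 53.8, 56.5, 61.9 and 47.6 CPM in K, 56.7, 54.3, 66.9 and 59.7 CPM in BHB and 68.8, 73.1, 71.5 and 62.3 CPM in normal. All K litters lay below all normal litters, by a small margin between K 3 at 61.9 and normal 4 at 62.3 CPM, while BHB 3 overlapped normal. The log2 fold change was -0.33 ± 0.09 for K (adjusted p = 0.221), -0.21 ± 0.09 for BHB (adjusted p = 0.418) and -0.27 ± 0.08 for both treated arms (adjusted p = 0.252), and without the 4 libraries it was -0.31 ± 0.09 for K and -0.12 ± 0.09 for BHB. Its exons overlap those of an antisense gene, 4930404A12Rik.

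Atp6v0a1, the widespread a1 subunit, differed the other way. It had 56.7, 59.8, 66.9 and 76.9 CPM in K, 76.8, 64.9, 58.4 and 66.1 CPM in BHB and 57.9, 49.3, 59.1 and 52.3 CPM in normal, with log2 fold changes of 0.25 ± 0.11 for K and 0.28 ± 0.11 for BHB (adjusted p = 0.241 and 0.417). Without the 4 libraries they were 0.10 ± 0.09 and 0.18 ± 0.09. The litters of each arm overlapped those of normal. The a3 subunit Tcirg1, which the naming rule does not take, averaged 50.3 ± 5.4 CPM in K, 48.6 ± 9.7 CPM in BHB and 48.3 ± 4.0 CPM in normal. Of the remaining V0 genes Atp6v0b and Atp6v0e had log2 fold changes of 0.46 ± 0.16 and 0.62 ± 0.25 for K, which were 0.13 ± 0.10 and 0.17 ± 0.12 without the 4 libraries. Atp6v0d1 and Atp6v0e2 stood at 0.05 ± 0.12 and -0.09 ± 0.16 for K.

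**Figure D4:**
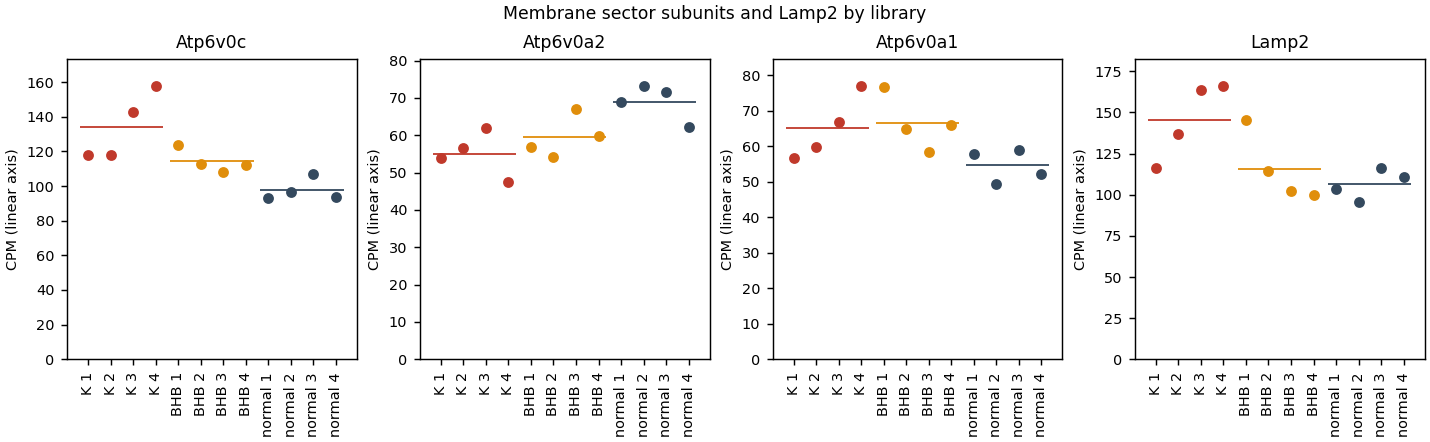
CPM of Atp6v0c, Atp6v0a2, Atp6v0a1 and Lamp2 in each library (points), with the arm mean as a line, K in red, BHB in orange and normal in dark blue. All 8 treated litters are above the normal litters for Atp6v0c, and all K litters are below them for Atp6v0a2.

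Of the lysosomal membrane glycoproteins, Lamp2, which also serves chaperone-mediated autophagy, had 117, 137, 164 and 166 CPM in K, 146, 115, 103 and 99.9 CPM in BHB and 103, 95.5, 116 and 111 CPM in normal. K lay above normal, but K 1 and normal 3 differed only in the second decimal at 116.53 and 116.49 CPM, and BHB overlapped normal. Lamp2 had a log2 fold change of 0.45 ± 0.14 for K (adjusted p = 0.221) and 0.12 ± 0.14 for BHB (adjusted p = 0.685), and of 0.26 ± 0.09 and -0.07 ± 0.09 without the 4 libraries. Lamp1 had 129, 125, 223 and 186 CPM in K, 182, 139, 151 and 143 CPM in BHB and 128, 123, 139 and 140 CPM in normal. Both arms overlapped normal for Lamp1, with log2 fold changes of 0.32 ± 0.17 for K and 0.21 ± 0.17 for BHB, and without the 4 libraries the value for K was -0.05.

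All 12 tested cathepsins had a higher level in K than in normal (against 50.6% of all genes), and 11 of 12 in BHB (against 52.8%). The medians were 0.58 and 0.50 on the log2 scale. Ctss and Ctse passed the filter on low counts mainly through treated litters. Their place in these counts, and in those over the 36 members, is therefore no result. Without the 4 libraries 7 of 12 were higher in K and 11 of 12 in BHB, with medians of 0.08 and 0.36. BHB was then BHB 3 and BHB 4 alone, with a summed level of 12 myeloid markers of 27.1 and 256 CPM. BHB 4 exceeded BHB 3 for every tested cathepsin but Ctso. Over all alternatives, leaving out BHB 4 as well among them, the lowest BHB value was 0.17 for Ctsl, 0.18 for Ctsb and 0.19 for Ctsd. It was 0.35 for Ctsz, 0.67 for Ctsh and 0.043 for Ctsc. The part of BHB 4 in these values was not tested. Ctsl, a cysteine protease, had 157, 159, 220 and 213 CPM in K, 235, 158, 146 and 151 CPM in BHB and 123, 113, 137 and 146 CPM in normal. All treated litters lay above normal, with BHB 3 at 146.48 and normal 4 at 146.44 CPM almost level, and BHB 1 far above the other BHB litters. The log2 fold change was 0.53 ± 0.17 for K (adjusted p = 0.221) and 0.41 ± 0.17 for BHB (adjusted p = 0.417), and the BHB value was 0.23 without BHB 1. Without the 4 libraries the values were 0.30 ± 0.09 for K and 0.20 ± 0.09 for BHB. A processed pseudogene, Gm49230, and an antisense gene overlap it.

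Ctsb, a cysteine protease, had 99.6, 87.2, 188 and 168 CPM in K, 154, 127, 99.1 and 158 CPM in BHB and 87.5, 72.8, 95.0 and 94.6 CPM in normal. BHB lay above normal and K overlapped it, with log2 fold changes of 0.63 ± 0.24 for K and 0.62 ± 0.24 for BHB (adjusted p = 0.225 and 0.417), and of 0.10 ± 0.20 and 0.55 ± 0.20 without the 4 libraries. Ctsd, the main lysosomal aspartic protease, had 52.4, 47.4, 104 and 83.1 CPM in K, 82.3, 77.2, 58.3 and 72.7 CPM in BHB and 46.1, 47.9, 57.1 and 52.5 CPM in normal. Its BHB litters also lay above normal and its K litters overlapped normal. The difference on the log2 scale was 0.50 ± 0.22 for K and 0.51 ± 0.22 for BHB, and without the 4 libraries it was -0.02 ± 0.11 for K and 0.36 ± 0.11 for BHB.

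Ctsz, a carboxypeptidase, had 32.7, 28.5, 47.7 and 47.1 CPM in K, 50.6, 29.2, 35.3 and 50.2 CPM in BHB and 25.8, 23.5, 29.6 and 31.3 CPM in normal. Both arms overlapped normal, at 0.50 ± 0.21 for K and 0.59 ± 0.21 for BHB on the log2 scale (adjusted p = 0.234 and 0.417), and at 0.16 ± 0.15 and 0.63 ± 0.15 without the 4 libraries. Ctsh, an aminopeptidase, had 4.83, 5.56, 19.4 and 22.8 CPM in K, 22.5, 8.08, 9.84 and 16.8 CPM in BHB and 3.02, 3.24, 8.15 and 10.5 CPM in normal. Its log2 fold change was 1.08 ± 0.60 for K and 1.20 ± 0.60 for BHB (adjusted p = 0.319 and 0.433). Without the 4 libraries the K value turned to -0.24 ± 0.58, and the BHB value was 1.09 ± 0.53. Summed CPM of 10 proximal tubule markers was 528, 403, 3184 and 3522 in K, 1372, 693, 1225 and 1598 in BHB and 339, 163, 982 and 1407 in normal. K 3 and K 4 were high and normal 1 and normal 2 low for both Ctsh and these markers, whose part in the difference was not tested. Ctsa and Ctsf had log2 fold changes of 0.17 ± 0.14 and 0.04 ± 0.09 for K.

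Ctss, the cathepsin of antigen-presenting cells, had the largest fold in BHB and few counts. It had 1.21, 0.671, 0.966 and 2.09 CPM in K, 2.41, 1.31, 1.30 and 13.0 CPM in BHB and 0.189, 0.490, 0.434 and 0.358 CPM in normal, from 7 to 20 counts in K, 13 to 102 in BHB and 2 to 5 in normal. All treated litters lay above normal and BHB 4 stood far above the rest, and the gene passed the filter on low counts only through the treated litters. The log2 fold change was 1.71 ± 0.91 for K (adjusted p = 0.305) and 3.53 ± 0.84 for BHB (adjusted p = 0.417), and the BHB value was 2.15 without BHB 4. DESeq2 gave it an adjusted p of 0.00566 in BHB and 0.0267 for both treated arms, where the members it called were Ctss alone and Ctss with Atp6v0c. DESeq2 ran without that filter. Normal litters held 2 to 5 counts and BHB 4 alone held 102, so these calls are given as a description. Over the alternatives the adjusted p of Ctss in BHB ranged from 0.00566 to 1, and for both treated arms from 0.0267 to 0.761.

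Summed CPM of 12 myeloid markers was 23.2, 21.7, 48.2 and 54.5 in K, 45.1, 43.9, 27.1 and 256 in BHB and 11.04, 6.67, 17.52 and 12.9 in normal. All treated litters lay above normal here as well, and BHB 4 was the highest. Ctsc, which activates granule proteases of immune cells, had 12.8, 8.14, 27.1 and 27.7 CPM in K, 17.0, 17.2, 9.43 and 24.0 CPM in BHB and 8.77, 6.47, 11.4 and 9.79 CPM in normal. It overlapped normal in both arms, at 1.05 ± 0.39 for K and 0.88 ± 0.39 for BHB on the log2 scale (adjusted p = 0.223 and 0.421), and at 0.20 ± 0.41 and 0.85 ± 0.40 without the 4 libraries. Ctsk, known from osteoclasts, ranged from 0.862 to 1.502 CPM in K, from 0.569 to 2.03 CPM in BHB and from 0.716 to 1.51 CPM in normal. Ctse, an aspartic protease of gastric and immune cells, ranged from 0 to 2.79, from 0.505 to 1.27 and from 0.490 to 1.07 CPM in K, BHB and normal. Neither was separated between arms. The part of the myeloid markers in these results was not tested.

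**Figure D5:**
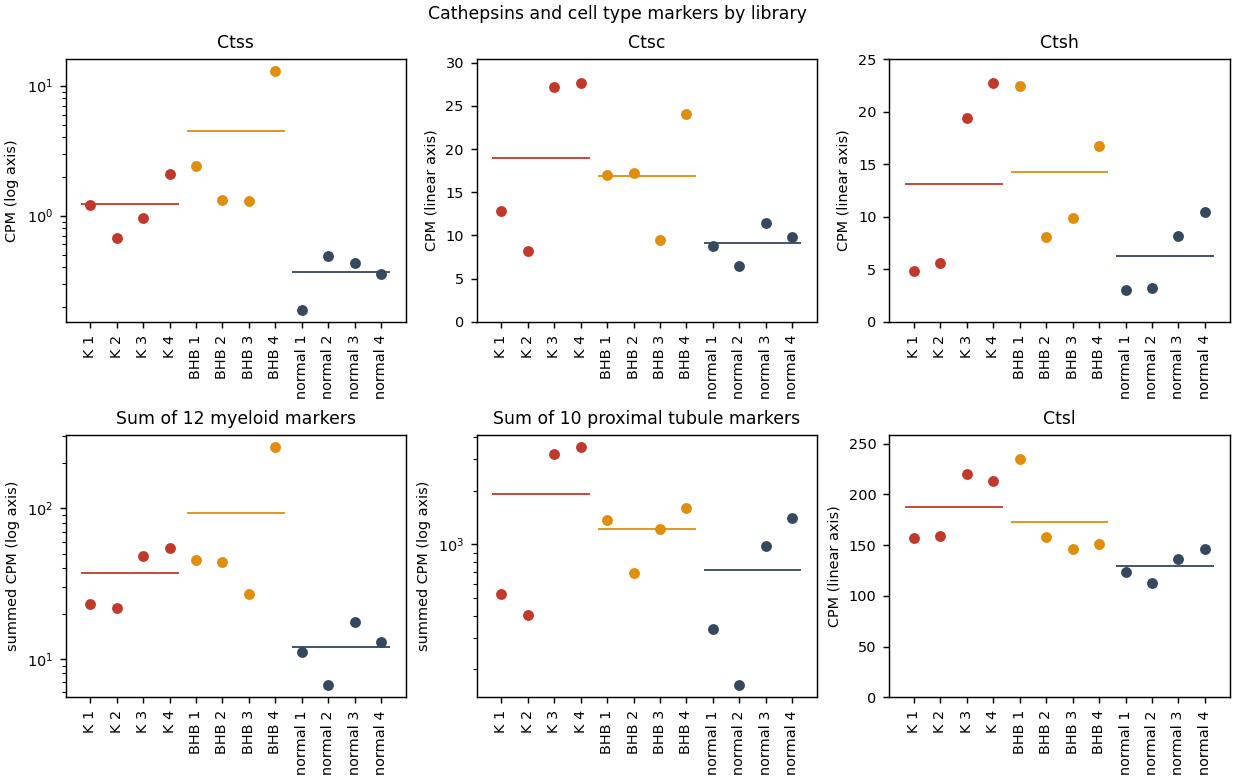
CPM of Ctss (log axis), Ctsc, Ctsh and Ctsl (linear axes) and summed CPM of 12 myeloid and 10 proximal tubule markers (log axes) in each library, with the arm mean as a line, K in red, BHB in orange and normal in dark blue. BHB 4 is highest for Ctss at 13.0 CPM and for the myeloid sum at 256 CPM.

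Between the treated arms 3 members had an unadjusted p under 0.05 (8.33%, against 8.23% of all genes), Ctss, Lamp2 and Atp6v0c. The log2 fold change of K over BHB was -1.82 ± 0.73 for Ctss, 0.33 ± 0.14 for Lamp2 and 0.23 ± 0.10 for Atp6v0c, and the smallest adjusted p of a member was 0.569. Without BHB 4 the value for Ctss was -0.45. The median over the 36 members was 0.18, with 25 higher in K, and without K 3, K 4, BHB 1 and BHB 2 it was -0.08.

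In lists of other lysosomal genes, written with earlier results of these data known, no gene passed the adjusted threshold in any comparison. The counts and medians of these lists were not computed without K 3, K 4, BHB 1 and BHB 2. Of 36 lysosomal hydrolases and activators 31 were higher in K than in normal (against 50.6% of all genes) and 34 in BHB (against 52.8%). Their median log2 fold changes were 0.26 and 0.19. Among those with the smallest p for both treated arms were Npc2, the cholesterol carrier, at 0.23 ± 0.07 and Psap, the saposin precursor, at 0.37 ± 0.13. Psap had 339 and 327 CPM in K 3 and K 4, against 215 and 213 CPM in K 1 and K 2 and 188 to 211 CPM in normal. Npc2 was level across K, at 54.3, 56.2, 54.9 and 57.3 CPM. Of 22 genes of the lysosomal membrane and sorting 17 were higher in K (against 50.6% of all genes) and 17 in BHB (against 52.8%). The medians were 0.20 and 0.13. Cln3 stood at 0.40 ± 0.11 and Ostm1 at 0.48 ± 0.17 for both treated arms, and the sorting receptor Sort1 at -0.18 ± 0.06.

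Of 13 V-ATPase partners outside the naming rule 9 were higher in K (against 50.6% of all genes) and 8 in BHB (against 52.8%). The medians were 0.06 and 0.02. Atp6ap2, an accessory subunit, stood at 0.51 ± 0.20, Ncoa7, which binds the V-ATPase, at 0.29 ± 0.12 and the assembly factor Vma21 at -0.24 ± 0.10 for both treated arms. Atp6ap2 had 45.4 and 44.4 CPM in K 3 and K 4, against 27.8 and 22.6 CPM in K 1 and K 2 and 20.7 to 23.9 CPM in normal. Of the 4 tested cathepsin inhibitors 2 were higher in K (against 50.6% of all genes) and 4 in BHB (against 52.8%). For both treated arms Cstb and Cst3 stood at 0.25 ± 0.12 and 0.20 ± 0.10, and Serpinb6a at 0.09 ± 0.14.

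Of 17 genes of the TFEB family and its autophagy targets 14 were higher in K (against 50.6% of all genes). In BHB 15 were higher (against 52.8%). The medians were 0.35 and 0.13. Flcn, the folliculin gene, stood at 0.24 ± 0.06 for both treated arms, its partner Fnip1 at 0.29 ± 0.09 and Tfec at 1.97 ± 0.68. Tfec had 0.0981 to 0.716 CPM in normal and passed the filter on low counts only through the treated litters. Its fold and its place in the counts of this list are therefore no result. The Fnip1 value came from K, at 84.6, 85.8, 77.5 and 83.6 CPM, while BHB had 63.8, 67.5, 49.0 and 48.9 CPM and normal 53.5, 61.0, 53.3 and 58.1 CPM. BHB 3 and BHB 4 lay below every normal litter. Of the factors themselves, named after their values were seen, Tfeb averaged 21.4 ± 8.0 CPM in K, 19.8 ± 4.0 CPM in BHB and 15.2 ± 0.6 CPM in normal, and Mitf 36.1 ± 24.1 CPM in K, 25.9 ± 15.8 CPM in BHB and 13.8 ± 3.7 CPM in normal (SD, n = 4 each). Tfeb had 31.0 and 24.9 CPM in K 3 and K 4, and 21.5 and 24.1 CPM in BHB 1 and BHB 2. In K 1 and K 2 it had 15.6 and 14.0 CPM, and in BHB 3 and BHB 4 19.0 and 14.7 CPM, against 14.4 to 15.8 CPM in normal. Mitf had 63.2 and 49.4 CPM in K 3 and K 4, and 36.6 and 41.9 CPM in BHB 1 and BHB 2, against 10.4 to 17.4 CPM in normal. Tfe3 averaged 42.7 ± 1.2 CPM in K, 44.0 ± 4.7 CPM in BHB and 43.0 ± 2.2 CPM in normal.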

How the data were processed

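The authors deposited one table of raw counts per Ensembl gene and, beside it, a normalized signal: their counts divided by 1 size factor per library, which was used only to check the counts. The authors list DESeq2 1.36.0, HTSeq 2.01, TopHat2 2.1.1 and cutadapt 2.10 (per the submitters' processing notes), without saying which step used which. No label or header names the genome build, the annotation or the strand setting. Of 55414 gene rows 6250 had blank counts and were not used.

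Counts were fitted with edgeR 4.0.16 (R 4.3.3, limma 3.58.1; filterByExpr with a minimum count of 10, TMM, robust quasi-likelihood test) in 1 model of 12 libraries with a mean per arm and 9 residual degrees of freedom. Adjustment ran over all genes tested. The script was tested on simulated data. Lengths came from GENCODE M21, by Ensembl ID, for all 45 members. CPM in the text are counts divided by the TMM-scaled total of tested genes. Exons of 17 members overlap another gene, 4 of them on the same strand. Among them, Ctsd overlaps Gm49369 on the same strand. Ctsb, Ctsz, Atp6v1e1 and Lamp1 overlap Fdft1, Nelfcd, Slc25a18 and Grtp1 on the opposite strand. Reads of these pairs could be split too. DESeq2 1.42.0 was an alternative, with other scaling, no filter, each litter left out, replicate blocks and libraries left out.

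The 45 members were taken by name alone. The lists, and which members to describe one by one, were chosen with earlier results of these data known. Per-library values are given for the 5 members with the smallest p in each comparison, Lamp1, Lamp2 and the restricted members, and the 3 list genes with the smallest p for both treated arms are named, except 1 that is not reported here. Ctsd, Ctsh and Atp6v1a were named after their values were seen. Deviations of K and normal litters of the same number had correlations of 0.11, 0.46, 0.34 and 0.24 for numbers 1 to 4. Of the 4 K litters 2 correlated best with the normal litter of their own number. This check of the data is the only source of that pairing. The correlations were -0.01, -0.01, -0.26 and 0.10 for BHB and normal, and -0.44, -0.22, -0.43 and -0.23 for K and BHB.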

Additional observations from a re-analysis of the deposited data

Results flagged for a closer look

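Of 105 sets of 4 litters examined (named members, isoform shares and marker sums in each arm), 4 held a litter far from the other 3, where chance flags about 1 in 20. Ctsl stood at 235 CPM in BHB 1, against 146 to 158 CPM in the other BHB litters. Ctss stood at 13.0 CPM in BHB 4, against 1.30 to 2.41 CPM in the other BHB litters. The summed level of 12 myeloid markers was 256 CPM in BHB 4, against 27.1 to 45.1 CPM in the other BHB litters. The summed level of 7 neutrophil markers was 25.0 CPM in K 3, against 1.61 to 4.60 CPM in the other K litters.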

How the results depend on the processing

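Leaving out any single litter left the count of members past the adjusted threshold at 0 in all 5 comparisons. DESeq2 gave 1 member for K over normal, 1 for BHB over normal, 2 for both treated arms and 2 for any difference, and the paired replicate block of K and normal gave 4. The replicate block over all 12 libraries called 0 members. The paired block changed no other call of a member. The K over normal median was 0.075 without K 3, K 4, BHB 1 and BHB 2 and 0.064 without those and BHB 4, and the median for both treated arms 0.092 and 0.085. These settings that leave out libraries, and the paired fit of K and normal, were chosen after seeing the data, and without the 5 libraries BHB is 1 litter whose spread is taken from the other arms.

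Of 1230 values of the 20 members named by the rule under an alternative, 1193 kept direction and side of the threshold, 7 passed it newly and 30 changed sign. Over all 36 members, without the 4 libraries 12 changed sign for K, 9 for BHB and 7 for both treated arms. Among the 20 the log2 fold change for K was then -0.12 for Atp6v0d2, -0.035 for Atp6v1c2, -0.83 for Ctse and -0.052 for Lamp1. For BHB it was -0.62 for Atp6v0d2, -0.29 for Atp6v1b1, 0.21 for Ctsk and -0.074 for Lamp2. For both treated arms it was -0.37 for Atp6v0d2, -0.029 for Atp6v1b1 and -0.24 for Ctse. Without the 4 and BHB 4 it was, for K, -0.13 for Atp6v0d2, -0.046 for Atp6v1c2, -0.84 for Ctse and -0.063 for Lamp1. For BHB it was -0.12 for Atp6v0a4, -0.35 for Atp6v0d2, -0.14 for Ctse and -0.060 for Lamp2. For both treated arms it was -0.056 for Atp6v0a4, -0.24 for Atp6v0d2, -0.49 for Ctse and -0.42 for Ctsk. With single litters left out, Atp6v1g2 in BHB ranged from -0.19 to 0.0036, Ctsk in BHB from -0.54 to 0.18, Lamp2 in BHB from -0.013 to 0.18 and Ctsk in both treated arms from -0.16 to 0.32. The cause was not tested. Counts of 2 to 5 for Ctss in normal litters limit its fold.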
